A study of Mus musculus with 9 samples.

Results

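Hearts taken 7 d after a myocardial infarction (MI) were compared with hearts of sham-operated mice across all genes of the deposited count table. The 3 libraries labelled MI 7 d and the 3 labelled sham were used, 6 of the 9 libraries of the series, and 14347 of 24964 gene symbols had enough reads to be tested. All mice were male C57BL/6JR, given as 8 weeks of age, with 3 mice in each group and no genetic change or drug named. In the MI mice the chest was opened under isoflurane and the left anterior descending (LAD) coronary artery was tied with a suture below the left auricle. Sham mice had the same surgery with the artery left untied, and the sources used here do not give when their hearts were taken. The remaining 3 libraries, from hearts 28 d after MI, entered the fit only for the shared estimate of spread and for a test of the later time. The tissue is labelled as heart with no region, so infarct, border and remote muscle cannot be told apart in these libraries.

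When a coronary artery closes, the cardiomyocytes it fed die and are cleared by neutrophils and then by macrophages that come from blood monocytes. Fibroblasts divide, take on contractile fibres and secrete a collagen-rich scar, because adult mammalian cardiomyocytes hardly divide. Cardiomyocytes that survive around the scar are stretched, and are known to return to genes of the fetal heart and to lower the genes of fat oxidation.

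The libraries held 12351525 to 13629120 counts in sham hearts and 18355720 to 19238101 at 7 d. Levels are given as CPM, the read count scaled to a common, TMM-corrected library total, and are compared only within a gene, since they are not corrected for gene length. The log2 fold change (log2 FC) is the fitted 7 d level minus the fitted sham level on the log2 scale, followed by its standard error. "Rose" and "fell" mean an adjusted p under 0.05 in edgeR's quasi-likelihood test. Sham libraries resembled each other far more than the 7 d libraries did, with a biological coefficient of variation of 2.77% against 17%. MI 7 d replicate 3 held 217 CPM of the adipocyte gene Adipoq against 0.529 and 3.12 CPM in the other 7 d libraries. Defining markers of cardiomyocytes (Myh6, Tnnt2, Tnni3, Actc1, Ryr2), fibroblasts (Pdgfra, Dcn, Tcf21), macrophages (Cd68, Csf1r, Adgre1, C1qa) and endothelium (Pecam1, Cdh5, Kdr) were present in all 6 libraries. The atrial muscle markers Myl7 and Sln were nearly absent, with 0 to 13 and 0 to 3 counts in each of the 6 libraries, and other atrial genes are given below. The 4 haemoglobin genes examined (Hba-a1, Hba-a2, Hbb-bs and Hbb-bt) were listed at 0 in all.

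The infarcted heart differed from sham in most of its measured genes. Of 14347 tested genes, 5602 (39.0%) rose, 5074 (35.4%) fell and 3671 did not pass, so that 74.4% were called in either direction. The counts given for each gene list below are to be read beside these shares. More than 2-fold changes were called for 3355 genes upward and 2489 downward, and more than 16-fold changes for 360 and 94. The rises therefore reached further than the falls, with a median log2 FC of 1.28 among the genes that rose and -0.98 among those that fell, against 0.06 over all tested genes. Genes that rose took 15.4% ± 0.167 of a library's counts in sham hearts (SD, n = 3) and 55.5% ± 0.66 at 7 d (n = 3). Genes that fell took 73.8% ± 0.208 in sham hearts and 30.8% ± 0.785 at 7 d. Both sets were picked by their calls in these same libraries. The direction of each shift is therefore set by that choice, and the values describe only its size. In bulk RNA, fewer cells of a type and less RNA per cell cannot be told apart. With library size alone as the scaling, the median of all genes moved up by 0.33, and 7408 genes rose while 3589 fell, 67.4% of calls upward in place of 52.5%, so changes below are relative to the TMM scale. Protein-coding genes made up 13716 of the tested genes, and of the 501 long non-coding RNA genes 164 rose and 154 fell.

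**Figure D1:**
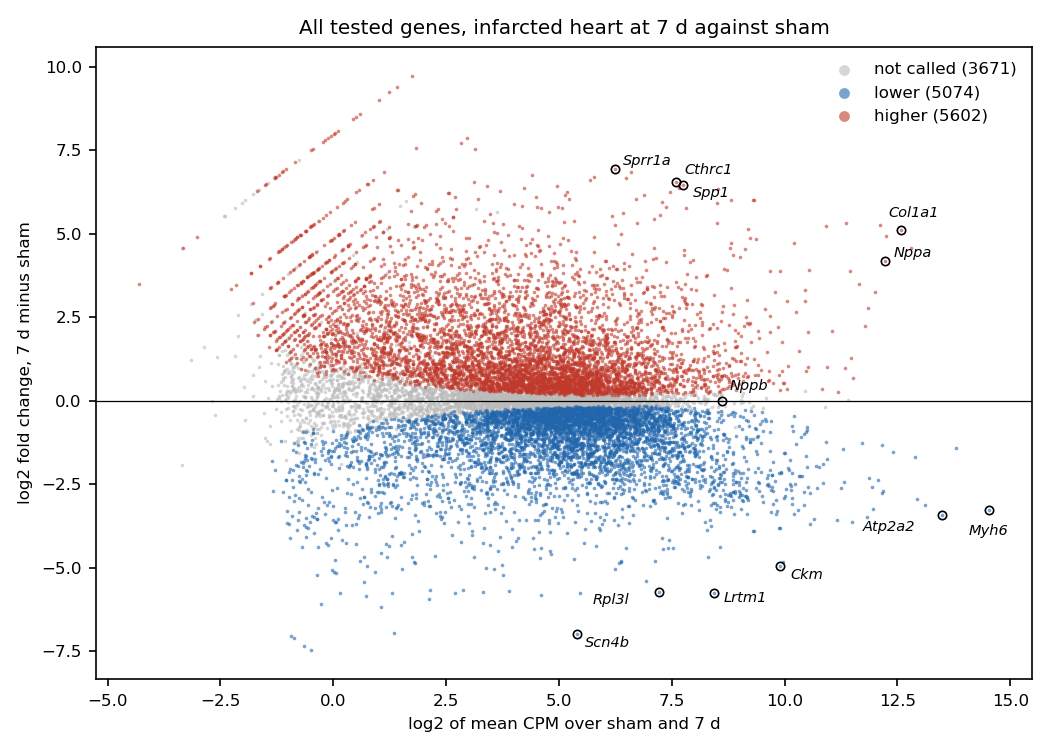
Mean level of each tested gene (x axis, log2 of the mean CPM over sham and 7 d) against its log2 fold change, 7 d minus sham (y axis), coloured by call. Red points reach further from 0 than blue ones, Nppb sits at 0, and the most abundant genes at the right are mostly blue. Rows of points at the left are genes with few sham counts.

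The largest rises, among genes with at least 32 CPM in the higher group and no overlap between groups, were mostly in genes of epithelial barrier, matrix and cartilage. Sprr1a, a small proline-rich protein of the epithelial barrier that stressed cardiomyocytes also make, stood at 0.785, 1.65 and 1.18 CPM in the sham libraries and 173, 149 and 126 CPM at 7 d. The lowest 7 d library was over the highest sham library by a wide margin, and the log2 FC was 6.95 ± 0.24. Cemip, which takes part in the breakdown of hyaluronan, stood at 1.31, 1.65 and 1.94 CPM in the sham libraries and 159.9, 283 and 130.1 CPM at 7 d (log2 FC 6.86 ± 0.36). Cthrc1, a secreted protein of collagen-making fibroblasts, stood at 4.27, 4.60 and 3.29 CPM in the sham libraries and 389, 414 and 344 CPM at 7 d (log2 FC 6.56 ± 0.21). The groups did not overlap for any of these genes, although the 7 d libraries of Cemip lay further apart than those of Cthrc1. Spp1, which encodes osteopontin, a matrix and macrophage protein, had a log2 FC of 6.47 ± 0.26. Col11a1 and Col2a1, fibrillar collagens of cartilage, had log2 FCs of 6.67 ± 0.47 and 6.38 ± 0.64, and C1qtnf3, also called cartducin, had 6.71 ± 0.47. Among the 7 d libraries MI 7 d replicate 3, the Adipoq-rich one, was the lowest for all of these except Spp1, with Col11a1 at 89.7 CPM against 215 and 224 CPM in the other 7 d libraries.

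The 8 largest falls, by the same rule, were mostly in genes of the working ventricular muscle. Scn4b, a beta subunit of the cardiac sodium channel, stood at 85.3, 79.4 and 85.7 CPM in the sham libraries and 0.529, 0.445 and 0.962 CPM at 7 d, and its log2 FC was -6.99 ± 0.85. Rpl3l, a striated-muscle form of a ribosomal protein, stood at 284, 306 and 289.9 CPM in the sham libraries and 4.95, 6.18 and 5.43 CPM at 7 d (log2 FC -5.73 ± 0.43). Ckm, the muscle creatine kinase that moves high-energy phosphate to the sarcomere, stood at 1840.5, 1855 and 1870.2 CPM in the sham libraries and 72.6, 56.7 and 49.2 CPM at 7 d (log2 FC -4.96 ± 0.44). Each sham library was over each 7 d library, and the replicates lay close together. Fbp2, the muscle fructose bisphosphatase, had -5.81 ± 0.50, and Mylk4, a kinase of the myosin light chain kinase family, had -5.41 ± 0.62. Efnb3, an ephrin ligand, had -5.77 ± 0.66, and the kinase gene Wnk2 had -5.03 ± 0.19. Lrtm1, a membrane protein with leucine-rich repeats, fell from a sham mean of 675 CPM to 12.3 CPM (-5.78 ± 0.66).

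**Figure D2:**
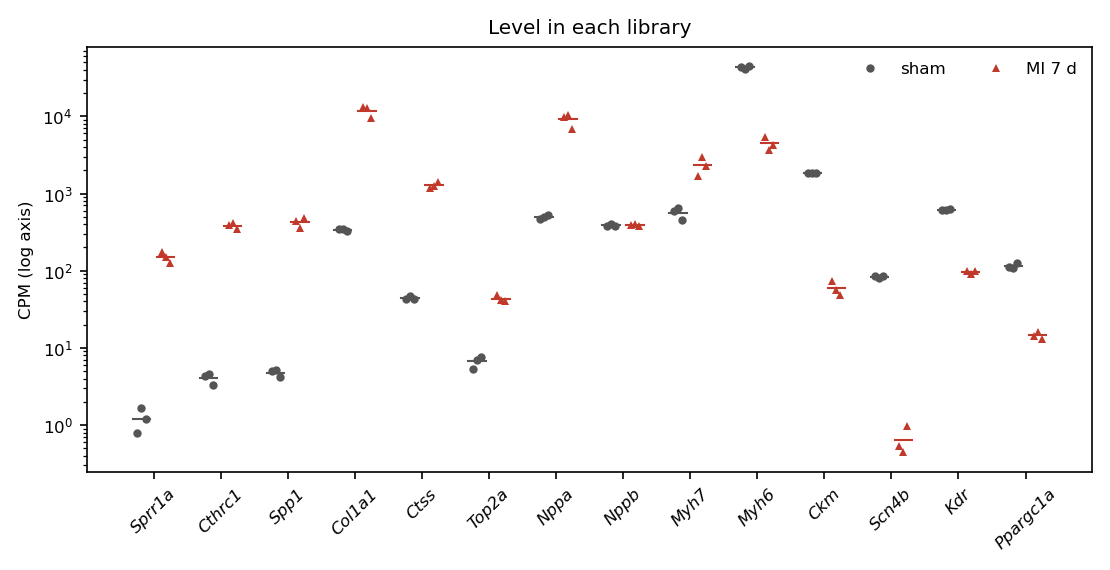
Level of 14 genes in each sham library (grey circles) and each 7 d library (red triangles), in CPM on a log axis, with the group mean as a bar. Replicates of a group lie close together beside the distance between groups, except for Nppb, where both groups overlap, and the least spread is among sham libraries.

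Collagen leaves the cell only after its chains are hydroxylated, folded and packed into large vesicles, and the genes of this route rose. Of 28 tested genes of the collagen secretory machinery 23 rose, 2 fell and 3 did not pass (median log2 FC 1.54), and the list took 0.246% ± 0.0035 of a library in sham hearts and 1.40% ± 0.088 at 7 d (SD, n = 3 each). P4ha3, a prolyl hydroxylase subunit, stood at 0.698, 1.65 and 0.929 CPM in the sham libraries and 67.9, 71.2 and 45.8 CPM at 7 d (log2 FC 5.82 ± 0.33). Its paralogue P4ha1 had a log2 FC of 0.58 ± 0.09, so members of one enzyme family rose to very different extents. Sparc, a collagen-binding matrix protein, had 3.25 ± 0.11, P3h3, a prolyl 3-hydroxylase family member, had 3.08 ± 0.15, and Kdelr3, a receptor that returns proteins to the endoplasmic reticulum, had 3.01 ± 0.14. Serpinh1, the collagen chaperone, had 1.47 ± 0.14. Mia2, which helps load collagen into vesicles (-0.37 ± 0.07), and Tmem38b, an endoplasmic reticulum ion channel (-0.33 ± 0.12), were the 2 that fell, and with library size alone their log2 FCs were -0.03 and 0.00 and neither passed. Tmem38b also did not pass without sham replicate 3 (-0.26), MI 7 d replicate 1 (-0.30) or MI 7 d replicate 2 (-0.32).

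Genes that build the sugar chains of proteoglycans mostly rose too. Of 33 tested genes of glycan and proteoglycan assembly 25 rose, 3 fell and 5 did not pass (median log2 FC 1.35). Hs6st2, a heparan sulphate sulphotransferase, had a log2 FC of 4.52 ± 0.30, Chsy3, a chondroitin synthase, had 3.65 ± 0.36, and Dse, which turns chondroitin into dermatan sulphate, had 2.80 ± 0.17. The hyaluronan synthases went different ways. Has2 rose (2.35 ± 0.30), Has3 fell (-2.88 ± 0.32), at 7.41, 9.47 and 10.2 CPM in the sham libraries and 0.769, 1.68 and 1.20 CPM at 7 d, and Has1, with a mean of 0.114 CPM in sham hearts, had 3.17 ± 1.31 and did not pass (edgeR adjusted p = 0.0504). Has1 passed under 8 of 19 alternatives, among them DESeq2 (3.23), voom (2.58), library size alone (3.50), upper quartile scaling (3.25), no filter (3.17), and without MI 7 d replicate 2 (3.66), MI 28 d replicate 2 (3.16) or MI 28 d replicate 3 (3.16).

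Contractile fibroblasts are known for smooth muscle actin and its partners. Of 30 tested genes of the actin cytoskeleton 27 rose, 1 fell and 2 did not pass (median log2 FC 1.62), and the list took 0.392% ± 0.0069 of a library in sham hearts and 1.40% ± 0.032 at 7 d (SD, n = 3 each). Acta2, smooth muscle alpha-actin, stood at 229, 197 and 222 CPM in the sham libraries and 824, 755 and 639 CPM at 7 d (log2 FC 1.78 ± 0.12). The smooth muscle genes Actg2 (a gamma-actin), Cnn1 (calponin) and Tagln (transgelin) had log2 FCs of 4.02 ± 0.41, 3.60 ± 0.35 and 3.34 ± 0.14, though 62.4% of the exon bases of Tagln overlap Gm48529 on the other strand. Palld, an actin-bundling protein that heart muscle also makes, fell (-0.44 ± 0.10), but not with library size alone (-0.11).

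Among 29 tested transcription factors of fibroblasts and mesenchyme 22 rose, 2 fell and 5 did not pass (median log2 FC 1.65). Prrx2, a homeobox factor of embryonic mesenchyme, had a log2 FC of 4.88 ± 0.64 from a mean of 0.234 CPM in sham hearts. Its paralogue Prrx1, at 75.5 CPM in sham hearts, had 0.15 ± 0.07 and did not pass, and with library size alone it had 0.48 and passed. Runx1 and Runx2, factors of blood and bone lineages, had log2 FCs of 3.98 ± 0.18 and 3.57 ± 0.31. Sox9, the factor of cartilage cells, stood at 3.14, 2.48 and 3.63 CPM in the sham libraries and 27.6, 28.5 and 23.8 CPM at 7 d (3.10 ± 0.30), beside the rise of Col2a1 and Col11a1 above. Tcf21, a factor of resting cardiac fibroblasts, stood at 11.4, 9.83 and 10.1 CPM in the sham libraries and 64.9, 73.4 and 79.5 CPM at 7 d (2.80 ± 0.31). Tead1 (-0.96 ± 0.14) and Tcf4 (-0.28 ± 0.09) fell, and with library size alone Tcf4 had 0.06 and did not pass.

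Secreted signals of the stroma mostly rose. Of 33 tested growth factor and cytokine genes 23 rose, 4 fell and 6 did not pass (median log2 FC 1.55). Wisp1 and Ctgf, matricellular factors of the CCN family, had log2 FCs of 5.63 ± 0.33 and 3.89 ± 0.16. Ptn and Mdk, the related heparin-binding factors pleiotrophin and midkine, had 5.53 ± 0.40 and 4.87 ± 0.43. The sham libraries of Ptn lay between 2.11 and 4.45 CPM and its 7 d libraries between 80.4 and 173 CPM. Il6, the interleukin-6 gene, had 4.64 ± 0.58 from a mean of 0.115 CPM in sham hearts. Fgf1, an acidic fibroblast growth factor, stood at 367, 370.4 and 389 CPM in the sham libraries and 101, 92.1 and 85.4 CPM at 7 d (-2.02 ± 0.09). Fgf13, which binds sodium channels inside the cell and is not secreted, had -2.16 ± 0.17, and the chemokine gene Cxcl12 had -0.62 ± 0.18, which did not pass with library size alone (-0.29).

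Receptors that bind matrix mostly rose. Of 30 tested adhesion receptors 24 rose, 3 fell and 3 did not pass (median log2 FC 1.39). Itga11, an integrin chain for fibrillar collagen, had a log2 FC of 3.96 ± 0.17, Sdc1, the proteoglycan syndecan 1, had 3.46 ± 0.18, Cdh11, a cadherin of mesenchyme, had 3.34 ± 0.61, and Mrc2, a collagen uptake receptor, had 3.03 ± 0.10. Itga7, the laminin integrin chain of muscle, stood at 279, 266 and 283 CPM in the sham libraries and 154, 129.7 and 141 CPM at 7 d (-0.96 ± 0.12). Itga1 (-0.56 ± 0.18), another integrin chain, and Cdh2 (-0.75 ± 0.15), the cadherin that joins cardiomyocytes, also fell. Itga1 did not pass without MI 7 d replicate 1 (-0.48) or with library size alone (-0.23).

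Receptors by which phagocytes sense antibodies and sugars rose almost without exception. Of 31 tested Fc and C-type lectin receptor genes 29 rose, 0 fell and 2 did not pass (median log2 FC 3.34), where 39.0% of all tested genes rose, and the list took 0.0289% ± 0.00082 of a library in sham hearts and 0.270% ± 0.031 at 7 d (SD, n = 3 each). Cd300lf, a receptor for membrane lipids on myeloid cells, stood at 0.349, 0.276 and 0.0845 CPM in the sham libraries and 21.3, 21.7 and 20.3 CPM at 7 d (log2 FC 6.45 ± 0.26). Clec4d and Clec4e, lectins that bind microbial glycolipid and dying cells, had 5.85 ± 0.47 and 4.61 ± 0.67. Trem2, a lipid receptor of scavenging macrophages, stood at 3.40, 4.14 and 3.97 CPM in the sham libraries and 136, 146 and 164 CPM at 7 d (5.27 ± 0.19). Mrc1, the mannose receptor of resident macrophages, had 1.11 ± 0.22. Cd209f (1.53 ± 1.21) and Cd209g (0.77 ± 1.43), under 0.3 CPM in sham hearts, did not pass.

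The transcription factors of myeloid cells mostly rose. Of 30 tested factors 24 rose, 3 fell and 3 did not pass (median log2 FC 0.72). Spi1, which encodes PU.1, the factor that sets the myeloid lineage, stood at 7.76, 7.72 and 6.42 CPM in the sham libraries and 66.4, 55.5 and 62.6 CPM at 7 d (3.07 ± 0.15). Cebpa (3.57 ± 0.40), Tfec (3.36 ± 0.44) and Runx3 (3.02 ± 0.27) had similar or larger log2 FCs. Mitf, a relative of Tfec, fell (-1.45 ± 0.12), as did Rel (-1.22 ± 0.31) and the lysosome factor Tfeb (-0.58 ± 0.09). The letters GAGGAAGT, known to bind PU.1 and searched on both strands of RefSeq promoters in the 250 bases before the start, were in 2.44% of 27025 promoters, in 3.33% of those of genes that rose, in 6.26% of 623 promoters of genes that rose over 8-fold, and in 1.91% of those of genes that fell. In the list of Fc and lectin receptors 3 of 25 promoters held one, and Fcgr4, an activating IgG receptor at 1.83, 2.39 and 1.86 CPM in the sham libraries and 50.2, 35.8 and 49.1 CPM at 7 d (4.47 ± 0.20), is shown as the example with those letters in capitals. A match describes letters and is not a bound site. It is the plus strand of chr1:171018806-171018925 in GRCm38.p6, the 120 bases up to the start.
Fcgr4: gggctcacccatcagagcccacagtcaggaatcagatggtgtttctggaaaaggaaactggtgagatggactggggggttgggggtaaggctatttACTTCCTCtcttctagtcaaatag

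Killing and digestion genes of phagocytes that had enough reads to be tested, 19 of a list of 24, rose with 1 exception. Of 19 tested genes of the phagocyte oxidase and its partners 18 rose, 1 fell and 0 did not pass (median log2 FC 3.12), and the list took 0.135% ± 0.003 of a library in sham hearts and 0.962% ± 0.11 at 7 d (SD, n = 3 each). Ctss, a lysosomal protease of antigen-presenting cells, stood at 43.5, 47.1 and 43.5 CPM in the sham libraries and 1171, 1237 and 1422 CPM at 7 d (log2 FC 4.84 ± 0.11). Cybb, the catalytic subunit of the oxidase, had 3.33 ± 0.14, and its cytosolic partners Ncf1 and Ncf4 had 3.65 ± 0.19 and 3.44 ± 0.15. The gene that fell was Nos2, the inducible nitric oxide synthase, which stood at 32.4, 36.1 and 31.8 CPM in the sham libraries and 7.60, 8.71 and 8.80 CPM at 7 d (-1.997 ± 0.18). Granule genes of neutrophils had too few counts to be tested. Ltf had 3 to 6 counts in the sham libraries and 4 to 9 at 7 d, Ngp 2 to 3 and 3 to 6, and Camp 0 to 1 and 0 to 3. Mpo and Elane had 0 counts in each sham library. In MI 7 d replicate 3 they had 77 and 15, against 0 to 4 in the other 7 d libraries.

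Macrophages that clear dead muscle store and export its lipid. Of 27 tested lipid-handling genes 24 rose, 2 fell and 1 did not pass (median log2 FC 2.57). Gpnmb, a lysosomal glycoprotein, stood at 7.85, 10.1 and 8.78 CPM in the sham libraries and 575, 734 and 879.9 CPM at 7 d (6.35 ± 0.25). Lgals3, galectin 3, had 5.76 ± 0.21, and Apoe, which carries cholesterol out of cells, had 3.88 ± 0.15. The 2 that fell, Lpl (lipoprotein lipase, -2.75 ± 0.28) and Cd36 (a fatty acid carrier, -2.59 ± 0.23), are also abundant in heart muscle and its capillaries, and Fabp4 did not pass (-0.78 ± 0.58) but fell without MI 7 d replicate 3, the Adipoq-rich library (-2.01). Genes linked to osteoclasts, the cells that dissolve bone, or to their control also rose for the most part. Of 14 members tested from a list of 20, 12 rose, 0 fell and 2 did not pass (median log2 FC 2.67). A gene near 0 counts in sham is tested only if MI libraries hold more reads, so the counts of such lists favour rises. Atp6v0d2, a proton pump subunit, had 6.06 ± 0.41, Acp5, the tartrate-resistant phosphatase, had 5.81 ± 0.66, and Tnfrsf11b, the decoy receptor osteoprotegerin, had 5.50 ± 0.49. Mmp14, a membrane-bound collagenase of fibroblasts too, had 3.91 ± 0.32, while Car2 did not pass (-0.04 ± 0.42). Dcstamp and Ocstamp, which drive the fusion of osteoclasts, had 0 counts in each sham library and 6 to 13 and 5 to 13 counts in the 7 d libraries, too few to be tested.

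Chemokines draw leukocytes into tissue. Of 25 chemokine genes tested from a list of 27, 19 rose, 1 fell and 5 did not pass (median log2 FC 2.82). Ccl17, a ligand for T cells and dendritic cells, had 0 counts in every sham library and 1.68, 1.98 and 2.31 CPM at 7 d. With a floor of 3 counts over the sham group it was at least 22.7-fold higher. Ccl3 had a log2 FC of 4.82 ± 0.38 and Cxcl16 one of 3.62 ± 0.14. Ccl2, the monocyte attractant, went from a sham mean of 3.10 CPM to 6.18 CPM (0.99 ± 0.29), a small rise beside that of its receptor gene Ccr2, which stood at 5.84, 4.50 and 4.48 CPM in the sham libraries and 56.4, 58.8 and 58.8 CPM at 7 d (3.55 ± 0.14). Of 14 receptors tested from a list of 20, 11 rose, 2 fell and 1 did not pass (median log2 FC 2.44). Cxcr6 (3.75 ± 0.20) and Cxcr3 (3.61 ± 0.53), receptors of T cells, rose, and Ackr3, a scavenger of Cxcl12, fell (-2.37 ± 0.16). Ackr1, a chemokine carrier of venules, had 3.72 ± 0.80, but 25.7% of its exon bases overlap Cadm3 and reads of the pair may not have been told apart.

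A list that mixes immune checkpoints with costimulators of T cells mostly rose as well. Of 19 checkpoint and costimulation genes tested from a list of 22, 16 rose, 2 fell and 1 did not pass (median log2 FC 1.64). Havcr2, which encodes TIM-3 and is also made by macrophages, stood at 0.785, 0.460 and 0.760 CPM in the sham libraries and 25.1, 28.5 and 26.0 CPM at 7 d (5.29 ± 0.32). Tnfrsf9 (3.38 ± 0.65) and Tnfrsf4 (3.21 ± 0.58), costimulators of activated T cells, rose from means of 0.114 and 0.119 CPM in sham hearts. Ctla4, a brake on T cells, went the other way, at 1.92, 1.75 and 2.87 CPM in the sham libraries and 0.240, 0.247 and 0.144 CPM at 7 d (-3.33 ± 0.39). Cd274, which encodes PD-L1, also fell (-0.76 ± 0.25), but did not pass without sham replicate 3 (-0.65), MI 7 d replicate 1 (-0.64) or MI 7 d replicate 3 (-0.73), or with library size alone (-0.42).

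Genes of dividing cells mostly rose. Of 38 tested spindle and kinetochore genes 35 rose, 2 fell and 1 did not pass (median log2 FC 2.54), and the list took 0.0120% ± 0.00053 of a library in sham hearts and 0.0474% ± 0.0072 at 7 d (SD, n = 3 each). Top2a, the topoisomerase that untangles chromosomes, stood at 5.41, 7.08 and 7.60 CPM in the sham libraries and 47.9, 41.3 and 40.1 CPM at 7 d (2.69 ± 0.22). Kif2c, a kinesin of the spindle, had 3.28 ± 0.27, Birc5, survivin, had 3.25 ± 0.27, and the checkpoint kinase Bub1 had 3.11 ± 0.28. Of 33 tested replication genes 28 rose, 2 fell and 3 did not pass (median log2 FC 1.04), with Tyms, thymidylate synthase, at 2.79 ± 0.24 and the licensing factor Cdt1 at 2.43 ± 0.33. Gmnn, which encodes geminin, the inhibitor of Cdt1, stood at 41.9, 36.1 and 39.8 CPM in the sham libraries and 10.1, 6.78 and 7.17 CPM at 7 d and fell (-2.29 ± 0.26). Cenpf (-1.19 ± 0.27) and Cenpa (-0.68 ± 0.14), proteins of the centromere, fell too, from means of 27.7 and 32.2 CPM in sham hearts.

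Promoters of mitotic genes are known for CCAAT boxes, bound by the factor NF-Y, and the 4 below are printed to show how they sit. The letters CCAAT, on either strand, were in the 250 bases before the start of 34.5% of 27025 promoters. They were in 27 of 33 promoters (81.8%) of the spindle list and 16 of 25 (64.0%) of the replication list, but in 35.8% of promoters of all genes that rose and 36.0% of those of all that fell. The 27 included Cenpf and Cenpa, which fell. Capitals mark each CCAAT, or ATTGG for the other strand, in the 150 bases up to the start, 5′ to 3′ on the gene's own strand, all from the minus strand of RefSeq's GRCm38.p6. Ccnb1 is at chr13:100786487-100786636, Ccnb2 at chr9:70421555-70421704, Cdk1 at chr10:69352913-69353062 and Top2a at chr11:99024190-99024339.
Ccnb1: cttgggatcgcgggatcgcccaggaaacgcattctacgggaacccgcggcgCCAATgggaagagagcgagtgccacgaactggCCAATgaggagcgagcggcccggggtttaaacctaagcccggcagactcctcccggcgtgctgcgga
Ccnb2: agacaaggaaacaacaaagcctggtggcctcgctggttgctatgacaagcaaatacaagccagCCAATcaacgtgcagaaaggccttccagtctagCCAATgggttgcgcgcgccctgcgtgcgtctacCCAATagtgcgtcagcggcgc
Cdk1: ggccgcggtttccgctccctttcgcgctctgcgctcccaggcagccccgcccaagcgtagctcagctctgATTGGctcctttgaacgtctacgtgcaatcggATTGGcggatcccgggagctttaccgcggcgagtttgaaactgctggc
Top2a: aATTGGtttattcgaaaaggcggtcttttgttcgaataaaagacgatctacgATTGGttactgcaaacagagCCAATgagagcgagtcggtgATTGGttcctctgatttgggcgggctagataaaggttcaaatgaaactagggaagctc
The mitotic cyclins Ccnb1 and Ccnb2 and their kinase Cdk1 had log2 FCs of 2.99 ± 0.29, 2.72 ± 0.29 and 3.09 ± 0.24. The 7 d libraries of Ccnb1 lay between 7.32 and 11.4 CPM, over sham libraries of 1.01 to 1.29 CPM.

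Genes that pace the cycle before division split. Of 30 tested cyclins, kinases and inhibitors 19 rose, 7 fell and 4 did not pass (median log2 FC 0.83). Among all tested genes 39.0% rose and 35.4% fell. Ccna2, the cyclin of DNA synthesis, had 2.89 ± 0.29 and E2f2, a factor for entry into it, had 2.61 ± 0.21. Cdkn2b, an inhibitor of G1 kinases, rose as well (4.25 ± 0.41). Ccnd1, a G1 cyclin, stood at 113, 105 and 108 CPM in the sham libraries and 46.3, 40.0 and 46.8 CPM at 7 d (-1.29 ± 0.11). Ccng1, a target of p53 that heart muscle makes in quantity, had -2.22 ± 0.18, and Mycn had -2.36 ± 0.22.

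The transcription factors of cardiomyocytes mostly fell. Of 31 tested factors 2 rose, 27 fell and 2 did not pass (median log2 FC -1.63), where 35.4% of all tested genes fell. Hopx, a homeodomain protein that tunes serum response factor, stood at 291, 313 and 303 CPM in the sham libraries and 14.2, 14.8 and 12.9 CPM at 7 d (-4.44 ± 0.25), though 27.2% of its exon bases overlap the antisense gene Hopxos. Ppara, the fatty acid receptor that turns on fat oxidation, stood at 123, 119.7 and 120.2 CPM in the sham libraries and 11.1, 12.4 and 11.1 CPM at 7 d (-3.39 ± 0.23). Its coactivator Ppargc1a had -2.99 ± 0.17 and its partner Rxrg had -3.69 ± 0.18. The core factors of heart development had log2 FCs nearer to 0, of -1.43 ± 0.11 for Nkx2-5, -1.22 ± 0.13 for Gata4 and -1.63 ± 0.13 for Tbx5. Ankrd1, a stretch-sensed cofactor, rose (0.99 ± 0.17), as did Tbx20 (0.47 ± 0.18). The call for Tbx20 was lost without any 1 of the 3 sham libraries, or without MI 7 d replicate 2 or 3, with log2 FCs of 0.34 to 0.47, and with RLE size factors (0.43).

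Most sarcomere genes fell, and a few fetal forms rose. Of 25 tested genes of the thick and thin filament 5 rose, 20 fell and 0 did not pass (median log2 FC -1.53), and the list took 10.9% ± 0.094 of a library in sham hearts and 3.15% ± 0.3 at 7 d (SD, n = 3 each). Myh6, the fast alpha heavy chain that adult mouse ventricles use, stood at 43524, 41369 and 44509 CPM in the sham libraries and 5439, 3692 and 4271 CPM at 7 d (-3.27 ± 0.29). Myh7, the slow fetal heavy chain encoded next to it, stood at 591, 651 and 459 CPM in the sham libraries and 1712, 3016 and 2303 CPM at 7 d and rose (2.05 ± 0.31). Tnni1, the fetal troponin I (2.74 ± 0.52), and Myl4, the atrial and fetal essential light chain (1.41 ± 0.27), rose from means under 3 CPM. Tnni3, Myl3 and Myl2, their adult ventricular relatives, had -3.62 ± 0.22, -3.50 ± 0.26 and -2.95 ± 0.19. Tnnt2, the cardiac troponin T, had -1.53 ± 0.16, and the cardiac actin gene Actc1 had -1.41 ± 0.15. The deepest fall was that of Myh7b, a further heavy chain (-4.75 ± 0.18).

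Muscle promoters carry known sites for TEAD factors (the MCAT element) and for serum response factor (the CArG box). The TEAD letters GGAATG, on either strand, were in 12.6% of all promoters and in 10 of 22 (45.5%) of the filament list, against 10.9% of promoters of all genes that fell. Both Myh6, which fell, and Myh7, which rose, held 1 match, at positions -206 and -201 from the start. The CArG box was in 1.40% of all promoters and in 3 of 22 of the list (Myl3, Actc1 and Acta1). The promoters below are shown because they belong to genes of 1 filament system that moved to different extents or in opposite directions. Myh6 (chr14:54966608-54966857, minus strand), Myh7 (chr14:54994627-54994876, minus strand) and Tnnt2 (chr1:135836214-135836333, plus strand) have the TEAD letters in capitals, with CATTCC for the other strand. Acta1 (chr8:123894776-123894895, minus strand) and Myl3 (chr9:110763558-110763677, plus strand) have the CArG box in capitals. All are from GRCm38.p6.
Myh6: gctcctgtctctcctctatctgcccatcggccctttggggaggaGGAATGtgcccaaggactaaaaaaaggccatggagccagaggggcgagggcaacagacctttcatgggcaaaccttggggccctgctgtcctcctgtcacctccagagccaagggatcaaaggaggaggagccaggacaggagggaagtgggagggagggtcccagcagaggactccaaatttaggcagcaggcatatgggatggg
Myh7: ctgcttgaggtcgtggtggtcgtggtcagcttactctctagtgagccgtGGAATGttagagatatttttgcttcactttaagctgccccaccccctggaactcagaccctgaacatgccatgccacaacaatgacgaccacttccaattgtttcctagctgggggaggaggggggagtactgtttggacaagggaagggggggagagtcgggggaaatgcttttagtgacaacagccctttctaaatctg
Tnnt2: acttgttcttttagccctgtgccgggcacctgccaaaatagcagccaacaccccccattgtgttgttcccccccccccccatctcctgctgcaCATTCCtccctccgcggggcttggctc
Acta1: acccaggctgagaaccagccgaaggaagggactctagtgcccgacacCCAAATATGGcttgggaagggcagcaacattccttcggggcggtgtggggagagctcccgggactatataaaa
Myl3: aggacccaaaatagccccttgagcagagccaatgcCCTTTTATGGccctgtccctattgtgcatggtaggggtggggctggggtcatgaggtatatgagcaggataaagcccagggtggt
Acta1, the skeletal actin that the fetal heart also uses, stood at 1482, 1014 and 938 CPM in the sham libraries and 284, 172 and 181 CPM at 7 d and fell (-2.43 ± 0.59).

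The Z-disc, M-line and titin genes followed the filaments, for of 30 tested members 5 rose, 23 fell and 2 did not pass (median log2 FC -1.82). Myot, the Z-disc protein myotilin, had -4.60 ± 0.62, the small heat shock protein Hspb6 had -2.98 ± 0.19, and Ttn, titin, had -2.32 ± 0.16. Pdlim3, an actin-associated LIM protein also found in smooth muscle, rose (3.11 ± 0.14), as did the stretch-responsive Fhl1 (1.01 ± 0.10), whereas its relative Fhl2 fell (-2.55 ± 0.24). Des, the intermediate filament desmin, had means of 2668 and 2729 CPM in the 2 groups and did not pass (0.03 ± 0.13), whereas with library size alone it had 0.37 and passed.

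Calcium release and reuptake genes mostly fell. Of 28 tested genes of the T-tubule and calcium release unit 5 rose, 21 fell and 2 did not pass (median log2 FC -1.62), and the list took 3.63% ± 0.036 of a library in sham hearts and 0.715% ± 0.053 at 7 d (SD, n = 3 each). Atp2a2, which pumps calcium back into the sarcoplasmic reticulum, stood at 21055, 20455 and 21479.5 CPM in the sham libraries and 2183, 2039.7 and 1692 CPM at 7 d (-3.41 ± 0.28). Hrc, a calcium-binding protein inside that store, had -4.83 ± 0.34, and the store proteins Srl (sarcalumenin) and Tmem38a (a counter-ion channel) had -3.10 ± 0.28 and -2.79 ± 0.21. Ryr2, the release channel, had -2.27 ± 0.24. Fkbp1b, a small partner of the release channel, rose from a mean of 0.934 CPM (3.00 ± 0.23). The membrane-bending gene Bin1 rose too (1.94 ± 0.19).

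Of 24 tested genes of the intercalated disc, the junction between cardiomyocytes, 3 rose, 20 fell and 1 did not pass (median log2 FC -1.11). Gja1, the ventricular connexin, fell (-1.14 ± 0.12), while Gja5, the connexin of conduction fibres and arteries, rose (2.20 ± 0.20). The desmosome genes Dsc2 and Dsg2 had -2.28 ± 0.19 and -2.01 ± 0.14, and the anchoring protein Ank2 had -2.39 ± 0.18. Genes known to answer wall stress split, for of 27 tested members 15 rose, 8 fell and 4 did not pass (median log2 FC 0.88). Nppa, the gene of atrial natriuretic peptide, stood at 467, 502 and 531 CPM in the sham libraries and 9889.7, 10552 and 6949 CPM at 7 d (4.19 ± 0.22), and 61.5% of its exon bases overlap Gm13054 on the other strand. Nppb, the gene of the related BNP, which lies beside it on chromosome 4 in the mouse, stood at 381, 404 and 379.6 CPM in the sham libraries and 389, 399.9 and 378 CPM at 7 d and overlapped fully (0.00 ± 0.09, edgeR adjusted p = 0.969). With library size alone as the scaling its log2 FC was 0.34 and it passed (edgeR adjusted p = 0.00653). Gdf15, a stress cytokine, had 3.61 ± 0.20, and Clu, the extracellular chaperone clusterin, stood at 976, 932 and 915 CPM in the sham libraries and 7094, 6501 and 5669.8 CPM at 7 d (2.77 ± 0.16).

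Nuclear genes for mitochondrial proteins mostly fell. Of 57 tested genes of the mitochondrial ribosome 57 fell, 0 rose and 0 did not pass (median log2 FC -1.34), from -0.39 ± 0.12 for Mrpl33 to -2.48 ± 0.17 for Mrps35, and Mrpl33 did not pass with library size alone (-0.06). Of 36 tested import and folding genes 0 rose, 34 fell and 2 did not pass (median log2 FC -1.45). Hspd1, the matrix chaperonin, had -2.29 ± 0.18, Immt, which shapes the cristae, had -2.32 ± 0.17, and Dnaja3, a matrix co-chaperone, had -2.41 ± 0.17. Of 29 tested genes for mitochondrial DNA and for fission or fusion 1 rose, 24 fell and 4 did not pass (median log2 FC -1.25). Mfn1 and Mfn2, which fuse outer membranes, had -2.44 ± 0.16 and -2.16 ± 0.15, and Mtfp1, a fission protein, had -4.43 ± 0.31. Bnip3l, a receptor for the removal of mitochondria, was the 1 that rose (0.64 ± 0.09).

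Genes of mitochondrial cofactor synthesis mostly fell. Of 37 tested genes for haem, iron-sulphur clusters and coenzyme Q 2 rose, 31 fell and 4 did not pass (median log2 FC -1.69). The coenzyme Q genes Coq8a, Coq9 and Coq10a had log2 FCs of -2.87 ± 0.20, -3.08 ± 0.22 and -3.08 ± 0.18. The 2 that rose were Ppox, of haem synthesis (0.60 ± 0.13), and Fdxr, which feeds electrons to cluster assembly (0.37 ± 0.15). The call for Fdxr was lost under 9 of 19 alternatives, with DESeq2 (0.34), RLE size factors (0.34), no filter (0.37), without the Adipoq-rich libraries (0.34), and without sham replicate 1 (0.40) or 2 (0.25), MI 7 d replicate 1 (0.31) or 3 (0.35), or MI 28 d replicate 1 (0.37).

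Genes of fat handling fell deeply. Of 29 tested genes of lipid uptake, droplets and PPARA targets 3 rose, 26 fell and 0 did not pass (median log2 FC -3.11), and the list took 2.70% ± 0.026 of a library in sham hearts and 0.481% ± 0.074 at 7 d (SD, n = 3 each). Plin5, which ties lipid droplets to mitochondria, stood at 157, 150.4 and 161 CPM in the sham libraries and 6.25, 4.55 and 5.10 CPM at 7 d (-4.88 ± 0.35). Ucp3, a mitochondrial carrier of muscle, had -4.51 ± 0.58, and Dgat2, which makes triglyceride, had -3.89 ± 0.48. Cpt1b, the muscle gate for fatty acids, had -3.74 ± 0.36, but its mean was only 2.26 CPM in sham hearts and 81.4% of its exon bases overlap the readthrough gene Gm44502, so most of its reads may not have been counted to it. Angptl4 and Ucp2, also known as PPAR targets, rose (2.39 ± 0.46 and 2.21 ± 0.13).

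Sugar use changed gene by gene. Of 33 tested genes of glycolysis and the pentose phosphate path 12 rose, 18 fell and 3 did not pass (median log2 FC -0.62). Among all tested genes 39.0% rose and 35.4% fell. Slc2a4, the insulin-regulated glucose carrier of muscle, had -3.12 ± 0.24, and Eno3, the muscle enolase, stood at 1740.0, 1788 and 1771 CPM in the sham libraries and 159, 111 and 109.7 CPM at 7 d (-3.80 ± 0.34). Slc16a3, the lactate exporter of glycolytic cells, stood at 2.62, 3.12 and 2.36 CPM in the sham libraries and 43.7, 31.8 and 35.8 CPM at 7 d (3.78 ± 0.17), and Hk3, the hexokinase of leukocytes, had 3.14 ± 0.19. Tkt and G6pdx, of the pentose phosphate path, rose (1.99 ± 0.28 and 1.93 ± 0.18).

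**Figure D3:**
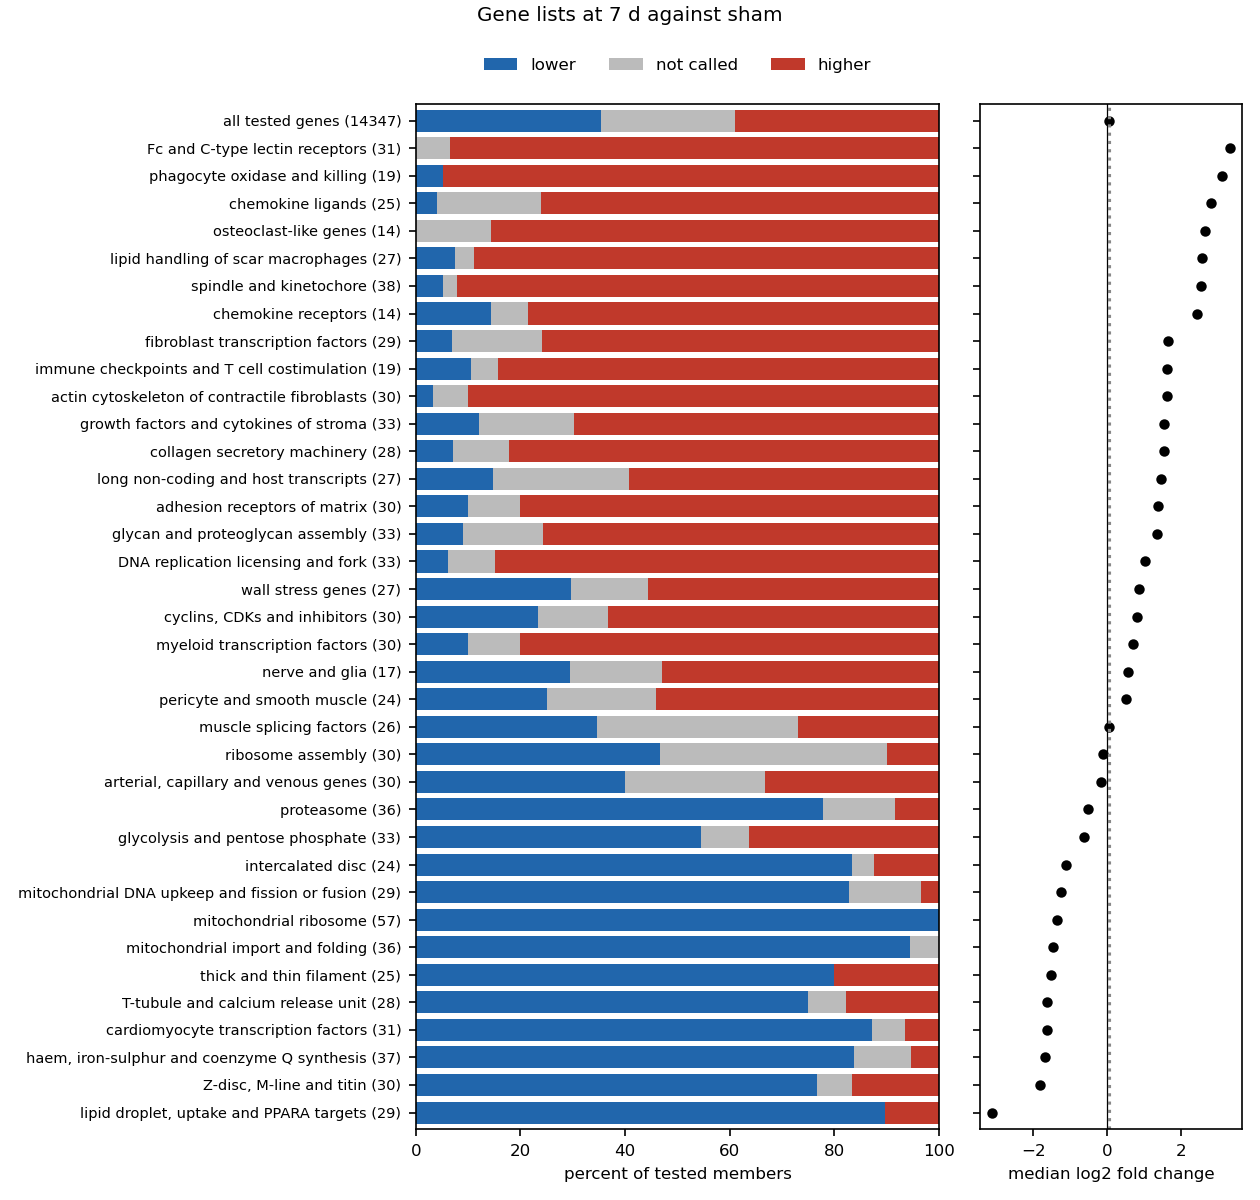
Share of the tested members of each list that fell (blue), did not pass (grey) or rose (red) at 7 d against sham, with the number tested in brackets, and at right the median log2 fold change of each list. The top bar and the dotted line give all tested genes; phagocyte lists sit at the top and lipid, sarcomere and mitochondrial lists at the bottom.

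Many enzymes and structural proteins exist as a form enriched in heart or skeletal muscle and a related form that is broader, fetal or of another tissue. Of the related forms used here, most are broader forms, while Myh7 and Tnni1 are fetal or slow muscle forms and Acta2 is the smooth muscle form. Some broader forms had many reads in sham hearts too, such as Slc25a5 at a mean of 390 CPM. Which cells made them was not tested. In 24 of 24 pairs with both genes tested the muscle-enriched form fell, and its log2 FC was below that of the related form. The related form rose in 17 pairs, fell in 4 and did not pass in 3. Eef1a2, the elongation factor of muscle and neurons, stood at 1907, 1854 and 1880.1 CPM in the sham libraries and 395, 291 and 304 CPM at 7 d (-2.51 ± 0.18). Its counterpart Eef1a1 stood at 1254, 1249 and 1202 CPM in the sham libraries and 5904, 5663 and 5800.5 CPM at 7 d (2.23 ± 0.12), which is the reverse order of the groups. Ckb, the brain-type creatine kinase, rose (1.08 ± 0.13) as Ckm fell. Fabp5 rose (1.44 ± 0.12) as Fabp3, the heart fatty acid binding protein, fell (-3.58 ± 0.28). Glycogen phosphorylase did likewise, with Pygl, the liver form, at 2.41 ± 0.39 and Pygm, the muscle form, at -2.90 ± 0.17. In cytochrome oxidase the muscle forms Cox6a2 (-3.38 ± 0.17) and Cox8b (-3.64 ± 0.21) fell, and the broader forms Cox6a1 (-0.03 ± 0.10) and Cox8a (-0.16 ± 0.10) did not pass, although Cox6a1 had 0.30 and passed with library size alone. Cox7a2 fell with Cox7a1 (-1.92 ± 0.15 and -4.37 ± 0.30). Pair members can share reads where their sequences are alike, and how such reads were counted is not given in the sources used here.

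**Figure D4:**
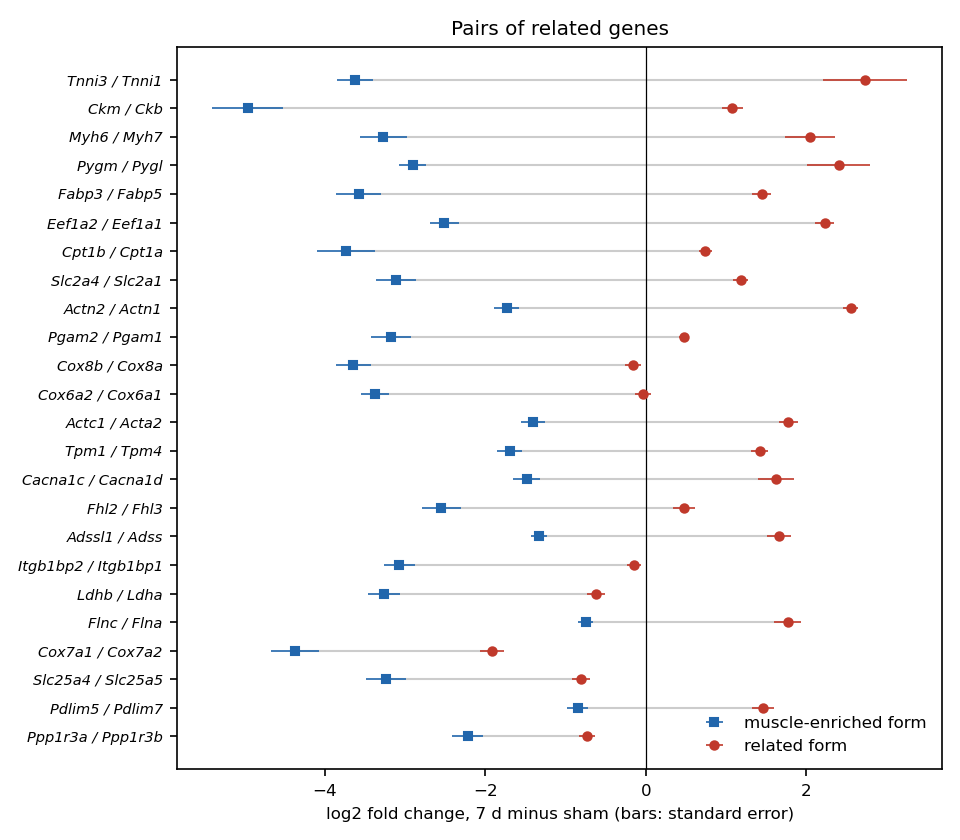
Log2 fold change at 7 d against sham, with its standard error, of the muscle-enriched form (blue squares) and the related form (red circles) in 24 pairs of related genes, ordered by the distance between them. All blue squares lie left of 0 and left of their red circle, and 3 red circles near 0 did not pass.

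Of 30 tested arterial, capillary and venous genes 10 rose, 12 fell and 8 did not pass (median log2 FC -0.15), shares near those of all tested genes, of which 39.0% rose and 35.4% fell. Car4, a carbonic anhydrase on capillary endothelium, had -4.39 ± 0.48, Tcf15, a factor for fatty acid transport there, had -3.26 ± 0.35, and Kdr, the main VEGF receptor, stood at 621, 607 and 626 CPM in the sham libraries and 98.6, 90.4 and 99.3 CPM at 7 d (-2.68 ± 0.14). Selp, P-selectin of activated endothelium, had 4.08 ± 0.38, Plvap, of fenestrae and venules, had 3.08 ± 0.22, and the leukocyte adhesion molecule Vcam1 had 2.16 ± 0.15. The general marker Pecam1 stood at 324, 305 and 307 CPM in the sham libraries and 202, 185 and 245 CPM at 7 d (-0.57 ± 0.21, edgeR adjusted p = 0.0309). Its call was lost without any 1 of the 3 sham libraries, or without MI 7 d replicate 1 or 2, with log2 FCs of -0.59 to -0.48, and also with upper quartile scaling (-0.48) and library size alone (-0.23). Of 24 tested genes of pericytes and smooth muscle 13 rose, 6 fell and 5 did not pass (median log2 FC 0.52). Abcc9, Kcnj8 and Rgs5, pericyte genes of which Abcc9 is also a cardiomyocyte channel subunit, had -3.06 ± 0.28, -1.88 ± 0.21 and -1.15 ± 0.29. Myh11, the smooth muscle myosin, did not pass (0.41 ± 0.25), and passed as higher without MI 7 d replicate 2 (0.65) or with library size alone (0.75).

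Of 17 tested nerve and glia genes 9 rose, 5 fell and 3 did not pass (median log2 FC 0.56). Among all tested genes 39.0% rose and 35.4% fell. Npy, the sympathetic peptide neuropeptide Y, had 0 counts in every sham library and 6.30, 3.22 and 6.30 CPM at 7 d, at least 60.1-fold higher with a floor of 3 counts over the sham group. Gap43, of growing axons, had 3.23 ± 0.71, and Ncam1, an adhesion molecule of nerve that stressed muscle also makes, had 3.86 ± 0.17. Dbh, which makes noradrenaline, fell (-2.28 ± 0.25), as did Gfra3 (-1.86 ± 0.33) and Nrn1 (-2.72 ± 0.52). Th, the enzyme before Dbh, had 0 counts in each sham library and 7 to 11 in the 7 d libraries and was not tested.

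Signals and their receptors were read side by side in 56 pairs with both genes tested. Both rose in 31, both fell in 4, the ligand rose and the receptor fell in 3, and the reverse held in 4, while in 14 at least 1 did not pass. Sfrp2, a secreted Wnt modulator, and the Wnt receptor Fzd2 had 6.02 ± 0.21 and 3.12 ± 0.19. Spp1 rose with its receptor Cd44 (2.56 ± 0.20), and Col1a1 (5.12 ± 0.22) with Itga11. Gas6 and its receptor Axl, by which dying cells are bound, rose by nearly equal amounts (1.61 ± 0.09 and 1.61 ± 0.12). Vegfa, the main endothelial growth factor, stood at 378, 372 and 376 CPM in the sham libraries and 73.8, 84.3 and 75.1 CPM at 7 d and fell (-2.27 ± 0.09) with both Kdr and Flt1 (-1.93 ± 0.20). Csf1 fell slightly (-0.31 ± 0.06), though not with library size alone (0.03), while Csf1r, its receptor on macrophages, stood at 81.4, 89.5 and 84.5 CPM in the sham libraries and 436, 443 and 535 CPM at 7 d and rose (2.47 ± 0.14). Fgf1 fell while Fgfr1 rose (1.93 ± 0.12), and Cxcl12 (-0.62 ± 0.18, -0.29 with library size alone) fell while Cxcr4 rose (2.69 ± 0.18). Nrg1 rose (1.92 ± 0.37) as Erbb4, its receptor on cardiomyocytes, fell (-1.57 ± 0.22). A pair is 2 transcript levels in whole tissue and does not show that the proteins met.

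**Figure D5:**
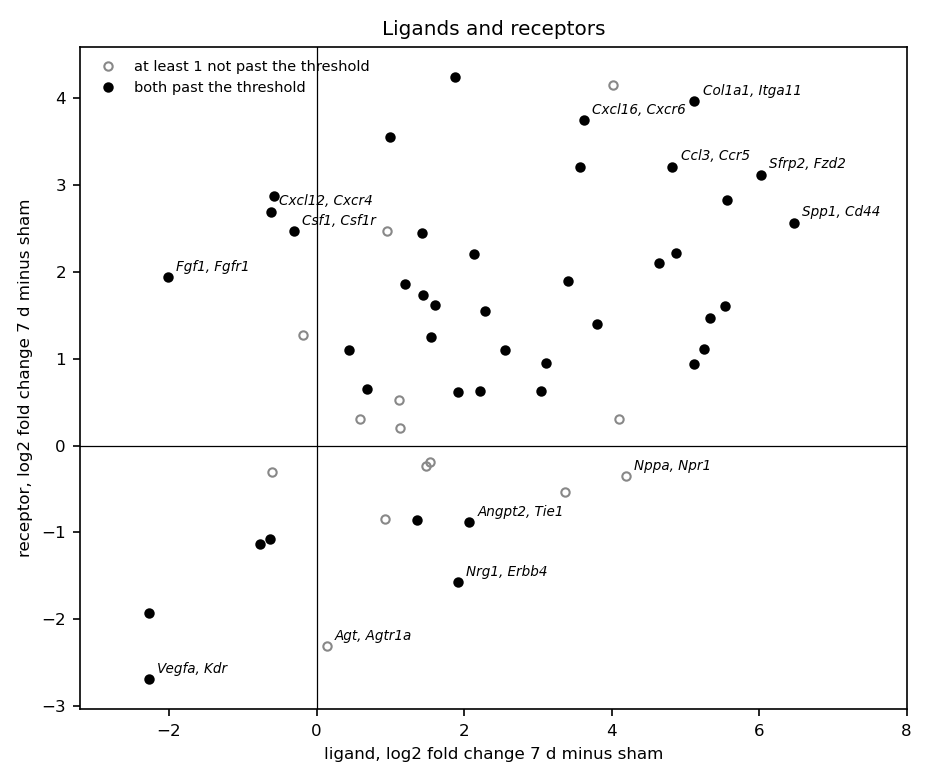
Log2 fold change at 7 d against sham of the ligand (x axis) and its receptor (y axis) in 56 pairs; filled points have both genes past the threshold. The upper right holds the 31 pairs that both rose, and Fgf1, Cxcl12 and Csf1 lie at the upper left with receptors that rose.

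Genes of RNA and protein upkeep moved in both directions. Of 26 tested splicing factors of muscle 7 rose, 9 fell and 10 did not pass (median log2 FC 0.04). Over all tested genes 39.0% rose and 35.4% fell, so these counts set the splicing list apart in neither direction. Rbfox1 (-3.37 ± 0.28), Rbm20 (-2.24 ± 0.15) and Rbm24 (-1.96 ± 0.13), which direct splicing in heart muscle, fell, and Ptbp1, the repressor of muscle exons in other cells, rose (1.27 ± 0.12). Of 30 tested ribosome assembly genes 3 rose, 14 fell and 13 did not pass (median log2 FC -0.10), but with library size alone as the scaling 7 fell, and the list took a larger share of counts at 7 d (0.134, 0.131 and 0.134% of counts in the sham libraries and 0.167, 0.154 and 0.163% in the 7 d libraries). Of 36 tested proteasome genes 3 rose, 28 fell and 5 did not pass (median log2 FC -0.51), and 17 fell with library size alone. Psmb8 and Psmb9, the subunits induced by interferon, rose (1.49 ± 0.12 and 1.30 ± 0.13), while their counterparts Psmb5 and Psmb6 fell (-0.66 ± 0.12 and -0.60 ± 0.10). Of 27 tested long non-coding and host transcripts 16 rose, 4 fell and 7 did not pass (median log2 FC 1.47). H19 (3.22 ± 0.62), an imprinted fetal RNA, and Meg3 (3.67 ± 0.41), Rian (3.01 ± 0.32) and Mirg (4.12 ± 0.39), which share an imprinted locus, rose. Mhrt, transcribed against Myh7, fell (-3.67 ± 0.28), although 39.9% of its exon bases overlap Myh7 on the other strand.

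Several gene families that sit side by side on a chromosome moved in 1 direction. The loci below were picked after their values were seen and are given without a test. All 9 tested genes of the MHC class II locus (chromosome 17) rose, from 2.09 ± 0.10 for H2-DMa to 3.47 ± 0.51 for H2-Eb2. So did all 5 of the Trem locus on the same chromosome and all 4 small leucine-rich proteoglycan genes on chromosome 13, where Aspn, asporin, had 3.70 ± 0.20. In the Mmp cluster on chromosome 9, 4 of 5 rose, led by Mmp12, the macrophage elastase (5.77 ± 0.19), and Mmp13 did not pass (-0.39 ± 0.29). All 5 acyl-CoA thioesterase genes of the Acot cluster on chromosome 12 fell, Acot3 most (-4.96 ± 0.71). The Slfn cluster on chromosome 11 split, with 5 that rose, led by Slfn4 (3.41 ± 0.32), and with Slfn3 (-1.36 ± 0.31) and Slfn5 (-0.50 ± 0.11) that fell, Slfn5 not with library size alone (-0.17). Members of such families are alike in sequence and may share reads.

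Markers of cells that could enter a heart sample unevenly were read by library. The 12 tested adipocyte genes took 0.0625, 0.0615 and 0.0599% of counts in the sham libraries and 0.0206, 0.0226 and 0.399% in the 7 d libraries and their groups overlapped. Cfd, the adipocyte protease adipsin, stood at 2.96, 6.62 and 4.05 CPM in the sham libraries and 1.73, 21.1 and 1018 CPM at 7 d, and Car3, Cidec, Cyp2e1 and Scd1 had the same shape, with MI 7 d replicate 3 over the other 5 libraries. Of the 12, 6 rose, 2 fell and 4 did not pass, and 0 rose without MI 7 d replicate 3 or without any 1 sham library. Hp, haptoglobin, a gene of fat and neutrophils, stood at 2.70, 4.04 and 2.53 CPM in the sham libraries and 51.5, 15.9 and 549 CPM at 7 d, highest in that library too. Jchain, of antibody-secreting cells, was 2.64 CPM in MI 7 d replicate 1 against 55.2 and 42.7 CPM in the other 7 d libraries. Leaving out the Adipoq-rich libraries gave 5862 genes that rose and 5252 that fell. Without MI 7 d replicate 1 or MI 28 d replicate 2, 8 adipocyte genes rose, and without MI 28 d replicate 1, 2 did. Of 12 tested mesothelial and epicardial genes 9 rose, 0 fell and 3 did not pass (median log2 FC 4.15), and their share was 0.0104, 0.0148 and 0.0271% in the 7 d libraries against 0.00288 to 0.00321% in sham. Msln, mesothelin, had 4.64 ± 0.98 and Upk3b, a uroplakin of mesothelium, had 5.33 ± 1.38. Of 13 tested B and plasma cell genes 7 rose, 0 fell and 6 did not pass (median log2 FC 1.47), and their share was 0.0122 to 0.0134% in sham libraries and 0.021 to 0.0324% at 7 d. Of 5 thymus and lymph node genes tested from a list of 15, 4 rose, 0 fell and 1 did not pass (median log2 FC 2.20). Of 7 atrial genes tested from 12, 4 rose, 3 fell and 0 did not pass (median log2 FC 1.22). The atrial list, which includes Nppa, took 0.0525% of counts in sham hearts and 1.03% at 7 d. Of 8 skeletal muscle genes tested from 12, 3 rose, 3 fell and 2 did not pass (median log2 FC 0.07). Of 3 lung and airway genes tested from 12, 2 rose, 1 fell and 0 did not pass (median log2 FC 2.96), while the list's share was 0.0266% in sham and 0.00379% at 7 d. The 1 that fell was Hopx, given above as a cardiomyocyte factor, so this share does not measure lung cells. The lung genes Sftpc and Scgb1a1 had 0 counts in each sham library and Sftpb had 1 to 3, too few to be tested. Of 2 erythroid genes tested from 8, 0 rose, 2 fell and 0 did not pass (median log2 FC -2.13). A gene near 0 counts in sham is tested only if MI libraries hold more, so these counts favour rises, as do those of the immune lists above. The part of these cells in the results above was not tested.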

How the data were processed

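RNA-seq of total RNA (TRIzol extraction and the KAPA RNA HyperPrep kit, per the labels' protocols) was available as a deposited table of raw read counts per gene symbol, which the authors made with featureCounts after trimming with Trim Galore and aligning with STAR to mm10, per the submitters' processing notes. Whether counting used strand or kept reads with several matches is not given in the sources used here, so paralogues and overlapping genes are uncertain. Of the genes named, those with over 25% of exon bases in another gene (GENCODE M21) are marked. Sequences came from RefSeq promoters on GRCm38.p6, which matched 11176 of 14347 tested symbols.

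Counts as deposited were tested with edgeR 4.0.16 (R 4.3.3): filterByExpr with a minimum count of 10, TMM scaling, 1 mean per group over 9 libraries, two-sided quasi-likelihood tests with p-values adjusted by Benjamini and Hochberg across every tested gene and a threshold of 0.05. Sham libraries differed beyond counting noise (chi-square per degree of freedom 1.67 to 1.80, against 19.1 to 29.8 among 7 d libraries), so none was an exact copy. Such values cannot tell separate mice from repeat libraries of the same RNA, and the 3 sham mice rest on the labels. The test was run on simulated data with 100 genes changed 2-fold and 100 changed 4-fold. Of those tested, 62.2% and 93.9% were called, and so were 9 of 13974 unchanged genes. Few genes changed there and all groups had the same spread. The simulation therefore does not cover the many changes and unequal spread of these data. DESeq2 1.42.0, limma 3.58.1 (voom), other scalings, filters, sample sets and leaving out each library were alternatives. The standard error is the log2 fold change divided by the root of its F statistic.

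The gene lists, pairs and members were chosen with earlier results of these data known, and lists are given by counts and medians without a set test. Of 1126 genes in 44 lists, 1050 were tested. The rule for names took the 8 largest changes each way, set markers, pair members, and per list up to 4 genes in its main direction and up to 3 others. The text prints only part of these, and a few genes of the rule, pairs and lists are not reported here. It adds members chosen for their function after their values were seen, among them P4ha1, Serpinh1, Mrc1, Sox9, Cybb, Ncf4, Apoe, Ccl2, Vcam1, Gja1, Ttn, Psmb5, Psmb6, Rian, Tkt and G6pdx. The same replicate numbers do not pair sham and 7 d mice (correlations of deviations 0.021, -0.002 and -0.0024).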

Additional observations from a re-analysis of the deposited data

Results flagged for a closer look

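The level at 28 d after MI was tested against that at 7 d in the same edgeR fit for 30 genes. These were the largest rises and falls at 7 d, chosen on the same 7 d libraries, and a set of markers. For genes picked as extreme at 7 d a move back at 28 d is favoured by that choice, so the number that differed is a description and supports nothing. Of the 30, 27 differed, 15 higher and 12 lower at 28 d, and 55.2% of all tested genes were called (4173 higher and 3747 lower). The 28 d libraries lay further apart than those of the other groups, with a biological coefficient of variation of 24.1%, and held 130.3, 0.496 and 122 CPM of Adipoq. Values are log2, 28 d minus 7 d, and leaving out each library in turn was chosen after seeing the data.

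Among the genes picked for their rise, Cemip, C1qtnf3, Col11a1, Col2a1, Spp1 and Cthrc1 differed by -5.82, -5.62, -4.89, -4.89, -4.62 and -4.30, and Col2a1 by -5.80 without MI 28 d replicate 2. Of the markers, Col1a1 and Postn differed by -3.16 and -2.92, Cd68 and Csf1r by -3.21 and -1.90, Top2a by -1.69 and Acta2 by -1.12.

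Among the genes picked for their fall, MI 28 d replicate 1 was the highest of the 28 d libraries, and leaving it out lowered the fold difference by over 1.5 times for 7 of 8. Scn4b, at 15.8, 1.30 and 2.61 CPM in the 28 d libraries, differed by 3.31, and by 1.59 without it. Lrtm1, at 360.0, 67.2 and 75.8 CPM, differed by 3.77, and by 2.53 without it. Mylk4 differed by 3.52 and 2.47, Efnb3 by 3.10 and 1.87, Rpl3l by 2.93 and 2.23, Ckm by 2.71 and 1.99, and Fbp2 by 2.55 and 1.66, with and without that library. Wnk2 differed by 2.26 and 2.04. All 8 stayed past the threshold without it.

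Of the other markers, Ppargc1a, Myh6 and Atp2a2 differed by 2.04, 1.79 and 1.75, and Myh7, which had risen at 7 d, by 1.72. Nppb, level with sham at 7 d, differed by 1.22, Kdr by 0.64, and Nppa by 0.66, which did not pass without MI 7 d replicate 3 (0.50) or MI 28 d replicate 2 (0.51). Sprr1a, Pecam1 and Adipoq did not pass, though Sprr1a passed without the Adipoq-rich libraries (-0.37) and Adipoq passed without MI 7 d replicate 3 (5.53).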

How the results depend on the processing

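Under other scalings, filters, tools and sample sets, 5008 to 7408 genes rose and 3589 to 5348 fell, and leaving out 1 library gave 5155 to 5914 and 4757 to 5245, losing 607 to 918 of 10676 calls per sham or 7 d library. With the replicate number as a block, and sham and 7 d libraries only, 5761 rose and 5161 fell. Scaling by library size alone lowered the falling members to 7 of 14 in ribosome assembly, 17 of 28 in the proteasome and 1 of 2 erythroid genes, and turned Cox6a1 (0.30), Csf1 (0.0265), Tcf4 (0.0554) and Tmem38b (0.0043). The 6 adipocyte genes that rose became 0 with voom, 3 with sham and 7 d libraries alone, 3 with the replicate block as well, 1 without the Adipoq-rich libraries and 0 to 8 on leaving out 1 library. The 3 skeletal muscle genes became 6 without a filter, 5 without the Adipoq-rich libraries and 3 to 5 on leaving out 1 library, and the 2 erythroid genes 1 with a stricter filter and 1 to 2 on leaving out 1 library. That filter tests fewer genes, and left 4 of 7 B and plasma, 2 of 4 thymus and lymph node and 1 of 2 lung genes. In 100 bases in place of 250, a shorter window by construction, promoters of genes that rose and fell held CCAAT in 22.3% and 22.6%, PU.1 letters in 1.89% and 0.677%, and AP-1 letters (TGANTCA) in 2.29% and 1.40%, where 250 bases gave 5.15% and 3.89%. Of 260 named genes past the threshold, 239 kept direction and call under each of the 19 alternatives in which they were tested. A gene left untested by an alternative, as low genes can be under the stricter filter, was not counted as lost. For the other changes the cause was not tested. Few sham counts limit the precision of low genes.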
